A study of Mus musculus with 8 samples.

Results

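Yap1 and Wwtr1 encode YAP and TAZ, the paired co-activators at the end of the Hippo pathway, and they were described here together with the 4 genes for the TEAD transcription factors (Tead1, Tead2, Tead3 and Tead4) and with Vgll4. These 7 genes were chosen by symbol from the 12528 genes listed in the expression table, and all 7 were listed. YAP and TAZ do not bind DNA on their own. In the nucleus they dock on a TEAD factor, which recognises the DNA, and in the cytoplasm they are held back once the LATS kinases have phosphorylated them. VGLL4 binds the TEAD factors too and competes there with YAP and TAZ. Fibroblasts on a rigid support are known for nuclear YAP and TAZ, a property of the proteins that an mRNA measurement does not read.

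The RNA came from mouse embryonic fibroblasts (MEFs) isolated from wild-type (WT) mice and from littermates lacking Cav1 (Cav1KO), the gene for the caveolar coat protein caveolin-1, and immortalized. The study asked how cells with and without caveolin-1 respond to the rigidity of their support, so WT and Cav1KO cells were each seeded sparsely on stiff or soft polyacrylamide and their poly(A) RNA was taken 24 h later, which gave 4 groups of 2 libraries, named WT or Cav1KO, stiff or soft. The sources used here do not say whether the 2 libraries of a group came from separate cultures, so p-values measure the spread between libraries, which may be technical. They also do not give the number of cell lines per genotype, so an effect of genotype and a difference between lines cannot be told apart.

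The values are CPM, read counts divided by each library's effective size, which the authors set with the TMM method. The 8 libraries held 17089836 to 19944952 reads on the listed genes, at which depth the limit of 3 reads that a count of 0 allows came to 0.151 to 0.181 CPM. The 4 Cav1KO libraries held 0.0523 to 0.411 CPM of Cav1, against 949.8 to 1157 CPM in WT cells. Of 8 fibroblast markers, 7 were listed, and their summed level was 7283 to 7325 CPM in WT stiff, 8993 to 9068 CPM in WT soft, 3633 to 4397 CPM in Cav1KO stiff and 9697 to 9866 CPM in Cav1KO soft. Thy1 was the marker not listed. None of the 5 epithelial, 4 endothelial and 5 muscle markers was listed, and of 5 macrophage markers only Cd68 was, at 0.552 to 4.55 CPM. In bulk RNA, fewer cells of a type and less RNA per cell cannot be told apart.

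Upstream sequences from RefSeq on the build GRCm38.p6 were matched to 5 of the 7 genes. Of the 2 starts listed for Wwtr1 and the 3 for Tead3, only the start nearest the annotated gene start was used. Of these 5 windows of 250 bases, 4 held a copy of GGAATG, the core of the element that TEAD factors bind. The 4 windows are printed because these genes encode the TEAD factors, a partner and the co-activators themselves. The capitals mark the element, read 5′ to 3′ on the strand of the gene, and the last base of each run is the base before the transcription start.
Yap1 (chr9:8004597-8004846, minus strand): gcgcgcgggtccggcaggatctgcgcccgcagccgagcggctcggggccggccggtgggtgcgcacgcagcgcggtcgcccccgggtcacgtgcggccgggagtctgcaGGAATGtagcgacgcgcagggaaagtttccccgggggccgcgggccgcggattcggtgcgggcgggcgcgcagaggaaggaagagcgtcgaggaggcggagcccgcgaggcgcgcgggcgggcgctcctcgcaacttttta
Wwtr1 (chr3:57575911-57576160, minus strand): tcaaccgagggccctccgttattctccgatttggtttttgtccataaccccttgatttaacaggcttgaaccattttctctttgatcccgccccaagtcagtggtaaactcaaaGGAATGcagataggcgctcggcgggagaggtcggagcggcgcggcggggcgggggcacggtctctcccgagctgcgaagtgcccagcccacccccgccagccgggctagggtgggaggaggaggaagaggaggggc
Tead3 (chr17:28350806-28351055, minus strand): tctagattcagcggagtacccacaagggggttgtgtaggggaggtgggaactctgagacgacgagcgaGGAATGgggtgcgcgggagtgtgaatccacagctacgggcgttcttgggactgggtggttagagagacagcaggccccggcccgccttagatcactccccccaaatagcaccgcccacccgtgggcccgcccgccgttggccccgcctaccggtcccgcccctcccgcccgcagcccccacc
Vgll4 (chr6:114969204-114969453, minus strand): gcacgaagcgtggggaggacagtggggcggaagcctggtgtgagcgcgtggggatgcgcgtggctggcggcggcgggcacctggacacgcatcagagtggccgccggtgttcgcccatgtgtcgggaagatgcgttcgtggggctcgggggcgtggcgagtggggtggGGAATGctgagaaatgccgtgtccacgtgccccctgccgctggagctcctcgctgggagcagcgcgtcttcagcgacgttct
The element lay 141 to 136 bases upstream of the start in Yap1, 136 to 131 in Wwtr1, 182 to 177 in Tead3 and 82 to 77 in Vgll4. The Vgll4 start used by RefSeq was 791 nt downstream of the gene start in the GENCODE M21 annotation, so its window lay inside the annotated gene. Annotated exons covered 12 bases of the Tead3 window and 17 of the Yap1 window. The window of Tead2 held no copy in either orientation. Counting every listed start of every gene, GGAATG or its reverse complement CATTCC was present in 4153 of 32851 windows of that length (12.6%). The element was chosen for display after the sequences were seen, and a match of letters is a description of the window, not a bound site.

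In each of the 4 comparisons, 4 of the 7 genes passed the test, a share of 57.1%. The test was limma on log2(CPM + 1) with Benjamini-Hochberg adjustment over the 12494 genes that passed the filter of 1 CPM in 2 libraries, which included all 7. Among all genes tested, 48.4% were called between stiff and soft in WT cells, 56.1% between stiff and soft in Cav1KO cells, 51.7% between Cav1KO and WT on stiff and 54.0% between Cav1KO and WT on soft. The count for the 7 genes was therefore close to the background in every comparison, and what follows rests on the individual genes. By direction, 1 member was higher and 3 lower on stiff in WT cells (22.1% and 26.3% of all genes), and 2 were higher and 2 lower in Cav1KO cells (27.9% and 28.2%). In Cav1KO compared with WT cells, 2 were higher and 2 lower on stiff (25.0% and 26.6% of all genes) and 3 were higher and 1 lower on soft (24.1% and 29.9%). The libraries of the compared groups did not overlap for 5 members between substrates in WT cells (75.3% of all genes), for 5 in Cav1KO cells (78.5%), for 6 between genotypes on stiff (72.7%) and for 6 on soft (81.1%). The comparisons share libraries (WT stiff, for example, is the reference of one and a test group of another), so their values are given side by side and are not independent.

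The co-activators behaved differently. Yap1 (ENSMUSG00000053110, chromosome 9, 7931999 to 8004596, minus strand, GRCm38) was at 150.2 and 141 CPM in WT stiff, 144 and 143 in WT soft, 159 and 153 in Cav1KO stiff, and 156 and 158 in Cav1KO soft. Stiff and soft overlapped in both genotypes, whereas every Cav1KO library lay slightly above every WT library. The log2 difference between stiff and soft was 0.02 (95% confidence interval -0.13 to 0.17) in WT cells and -0.01 (-0.16 to 0.14) in Cav1KO cells, with limma adjusted p of 0.814 and 0.909. Between Cav1KO and WT it was 0.10 (-0.06 to 0.25) on stiff and 0.13 (-0.02 to 0.28) on soft, with limma adjusted p of 0.260 and 0.135. The exception among the alternatives was quantile normalization, which called Yap1 higher in Cav1KO cells on soft (0.20, adjusted p = 0.0334). Of all genes tested, only 3.77% changed less than Yap1 between stiff and soft in WT cells and 2.11% in Cav1KO cells.

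Wwtr1 (ENSMUSG00000027803, chromosome 3, 57455649 to 57575910, minus strand) was the member with the largest genotype difference on both substrates. It was at 152 and 159 CPM in WT stiff, 185 and 174 in WT soft, 337 and 354 in Cav1KO stiff, and 381 and 384 in Cav1KO soft. Every Cav1KO library lay above every WT library. The mean was 2.22 times as high in Cav1KO as in WT cells on stiff (log2 difference 1.15 with SE 0.07, limma adjusted p = 2.97e-06) and 2.13 times as high on soft (log2 difference 1.09 with SE 0.07, limma adjusted p = 3.79e-06). Both calls held under each of the 9 other settings tried and without each library in turn. Of all genes tested, 89.1% changed less on stiff and 86.5% less on soft.

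The stiffness effect on Wwtr1 was small. In WT cells both soft libraries lay above both stiff ones, with a log2 difference of -0.21 (95% interval -0.36 to -0.05, limma adjusted p = 0.0342). In Cav1KO cells the difference was -0.15 (-0.30 to 0.01, limma adjusted p = 0.0965) with the same order of libraries. The WT call was lost with limma adjusted p of 0.150 without WT stiff replicate 1, 0.0597 without WT stiff replicate 2, 0.167 without WT soft replicate 1, 0.0724 without Cav1KO soft replicate 1 and 0.0726 without Cav1KO soft replicate 2. It was also lost with median centring (0.121), without the mean-variance trend (0.0825) and with DESeq2 (0.0782). In Cav1KO cells quantile normalization gave a call (-0.31, adjusted p = 0.00216).

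The ratio of Wwtr1 to Yap1 CPM summarises the contrast between the co-activators, in each library rather than as a comparison of levels between genes. It was 1.01 and 1.13 in WT stiff, 1.29 and 1.22 in WT soft, 2.12 and 2.32 in Cav1KO stiff, and 2.44 and 2.44 in Cav1KO soft. No Cav1KO library overlapped a WT library. The log2 ratio of Yap1 to Wwtr1 was 1.01 lower in the 4 Cav1KO than in the 4 WT libraries (exact permutation test, two-sided, p = 0.0286, the smallest that 4 against 4 allows, and 0.0857 after adjustment over 12 such tests). The tests of ratios and shares could not therefore pass the threshold unless many of the 12 reached that smallest p. Between stiff and soft the same log2 ratio differed by 0.18 (exact permutation test, adjusted p = 0.651).

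**Figure D1:**
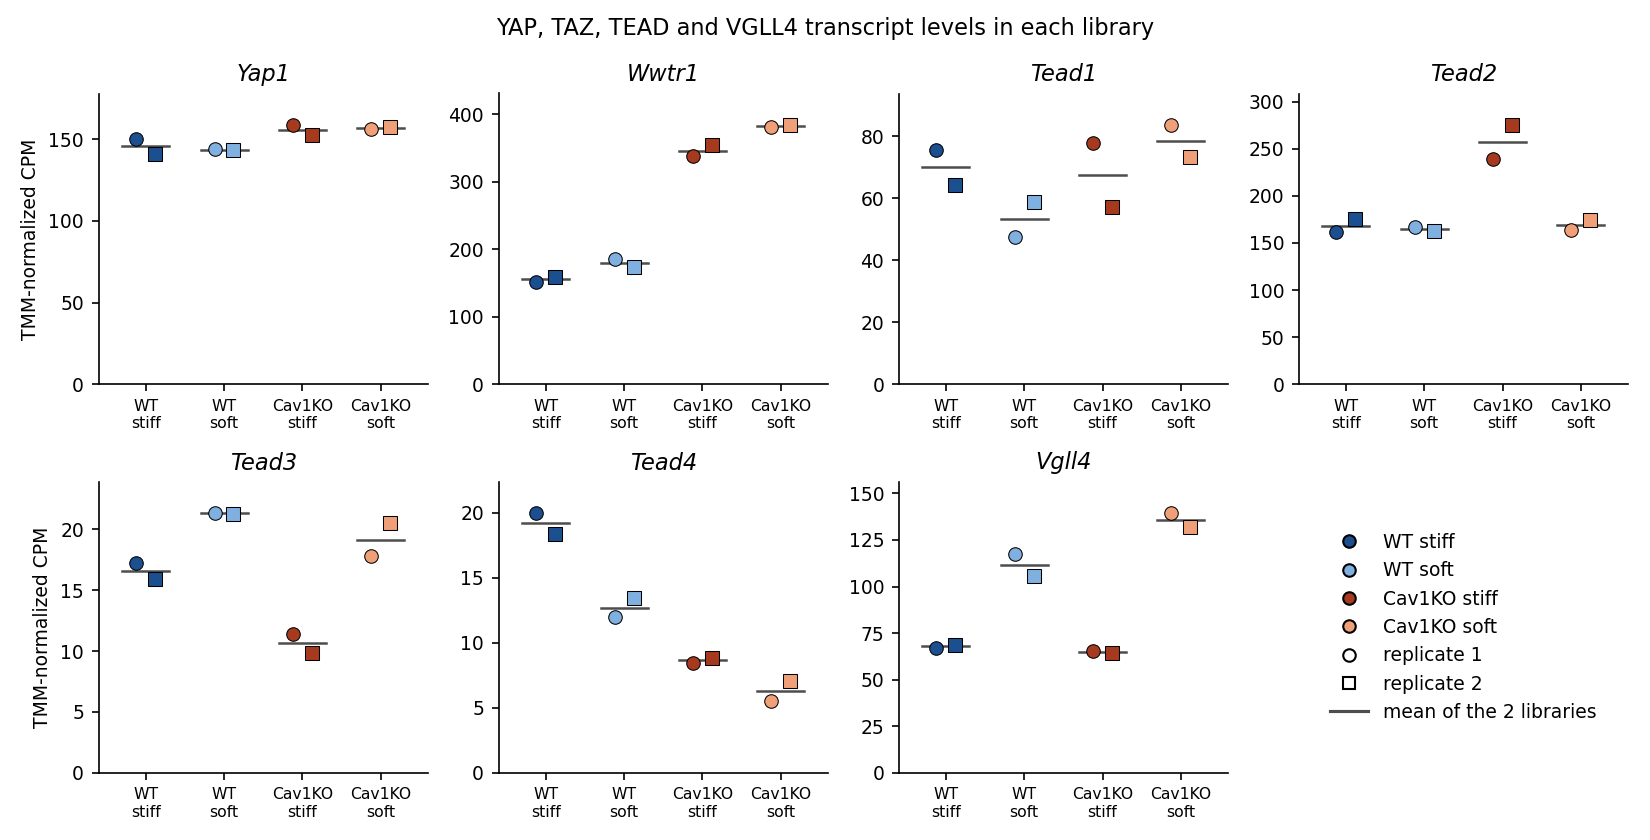
Levels of the 7 genes in each library, in TMM-scaled CPM, with 1 panel per gene, each with its own vertical axis from 0. Circles are replicate 1, squares replicate 2 and lines the mean of the 2 libraries. Wwtr1 is higher in all 4 Cav1KO libraries, Vgll4 is higher in all 4 soft libraries, and Tead2 stands apart only in the 2 Cav1KO stiff libraries.

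Among the TEAD genes, Tead2, Tead3 and Tead4 were called between substrates in Cav1KO cells, and Tead3 and Tead4 also in WT cells. Of these calls, only those of Tead2 and Tead3 in Cav1KO cells held under every setting and left-out library. Tead4 was lower in Cav1KO cells, and Tead1 varied most between replicates. Tead2 (ENSMUSG00000030796, chromosome 7, 45215753 to 45233644, plus strand) was at 161 and 175 CPM in WT stiff, 166 and 163 in WT soft, 239 and 275 in Cav1KO stiff, and 164 and 174 in Cav1KO soft. The Cav1KO stiff pair lay above the other 6 libraries, which overlapped. In Cav1KO cells Tead2 was 1.52 times as high on stiff as on soft (log2 difference 0.60, 95% interval 0.40 to 0.80, limma adjusted p = 0.000518), whereas the WT difference was 0.03 (-0.17 to 0.23, limma adjusted p = 0.801). On stiff it was 1.53 times as high in Cav1KO as in WT cells (0.61, 0.41 to 0.81, limma adjusted p = 0.000493), and on soft the difference was 0.04 (-0.16 to 0.24, limma adjusted p = 0.720).

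Tead2 was also the only member called in the direct test of the difference between stiffness effects (WT effect minus Cav1KO effect). Of all genes tested, 10.5% were called, 4.47% with a positive and 6.0% with a negative value. Before adjustment 4 members were under 0.05 (limma), the others being Tead1, Tead3 and Vgll4. For Tead2 the value was -0.57 with SE 0.12 (limma adjusted p = 0.0310). This call was lost with limma adjusted p of 0.116 without WT stiff replicate 1, 0.102 without WT soft replicate 1, 0.0683 without WT soft replicate 2, 0.0658 without Cav1KO stiff replicate 2, 0.143 without Cav1KO soft replicate 1 and 0.104 without Cav1KO soft replicate 2. It was also lost at 0.0605 without the mean-variance trend. The Cav1KO stiff libraries that carried the highest Tead2 also had the lowest summed fibroblast markers (3633 to 4397 CPM). That sum was mostly Vim, Col1a1 and Col1a2, and not every marker followed it: Pdgfrb was at 109 and 80.6 CPM in Cav1KO stiff and 66.2 and 62.7 in WT stiff, and Twist1 was lowest in Cav1KO soft (33.4 and 35.7 CPM). The part of the markers in the results for Tead2, and for Tead3, which was lowest in the same libraries, was not tested.

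Tead3 (ENSMUSG00000002249, chromosome 17, 28331671 to 28350817, minus strand) ran opposite to Tead2 in Cav1KO cells. Its levels were 17.2 and 15.9 CPM in WT stiff, 21.3 and 21.3 in WT soft, 11.4 and 9.86 in Cav1KO stiff, and 17.8 and 20.5 in Cav1KO soft. The Cav1KO stiff pair was the lowest. Tead3 was 1.8 times as high on soft as on stiff in Cav1KO cells (log2 difference stiff minus soft -0.79, limma adjusted p = 0.000722), and 1.56 times as high in WT as in Cav1KO cells on stiff (Cav1KO minus WT -0.60, limma adjusted p = 0.00355). Both calls held under every other setting and every left-out library. On soft the genotype difference was -0.15 (95% interval -0.43 to 0.13, limma adjusted p = 0.324).

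In WT cells, Tead3 was 1.29 times as high on soft as on stiff (log2 difference -0.35, limma adjusted p = 0.0435), a call close to the threshold. It was lost with limma adjusted p of 0.0818 without WT stiff replicate 1, 0.172 without WT stiff replicate 2, 0.142 without WT soft replicate 1, 0.119 without WT soft replicate 2, 0.0613 without Cav1KO soft replicate 1 and 0.0620 without Cav1KO soft replicate 2. It was lost as well with median centring (0.0616), quantile normalization (0.0898), DESeq2 (0.124) and a replicate block (0.0570). The WT and Cav1KO effects did not pass the test of their difference (0.45, 95% interval 0.05 to 0.84, limma adjusted p = 0.108).

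Tead4 (ENSMUSG00000030353, chromosome 6, 128224288 to 128300823, minus strand) was lower in Cav1KO cells on both substrates. It was at 20.0 and 18.4 CPM in WT stiff, 12 and 13.4 in WT soft, 8.47 and 8.82 in Cav1KO stiff, and 5.49 and 7.10 in Cav1KO soft. All 4 WT libraries lay above all 4 Cav1KO libraries, and within each genotype both stiff libraries lay above both soft ones. The WT mean was 2.22 times the Cav1KO mean on stiff (log2 difference -1.07 with SE 0.14, limma adjusted p = 0.000346) and 2.02 times on soft (-0.92 with SE 0.14, limma adjusted p = 0.000740). These calls held under all settings and left-out libraries. Tead4 was also the member with the fewest reads, 105 to 398 per library, so that counting error alone came to 9.76% in the shallowest.

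The stiffness effect on Tead4 had the same sign in both genotypes. The log2 difference was 0.56 in WT cells (95% interval 0.24 to 0.88, limma adjusted p = 0.0113) and 0.41 in Cav1KO cells (0.09 to 0.74, limma adjusted p = 0.0351). The WT call was lost at limma adjusted p = 0.0683 without WT stiff replicate 1 and 0.0784 without WT soft replicate 1. The Cav1KO call was lost at 0.0648 without Cav1KO stiff replicate 1, 0.108 without Cav1KO stiff replicate 2 and 0.247 without Cav1KO soft replicate 1, which reduced the difference to 0.25, and at 0.109 with DESeq2.

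Tead1 (ENSMUSG00000055320, chromosome 7, 112679318 to 112906807, plus strand) was at 75.7 and 64.2 CPM in WT stiff, 47.5 and 58.9 in WT soft, 77.7 and 57.1 in Cav1KO stiff, and 83.7 and 73.3 in Cav1KO soft. Its 2 Cav1KO stiff libraries differed by 1.36 times, the widest replicate ratio among the members. Cav1KO cells had more Tead1 than WT cells on soft (log2 difference 0.56, 95% interval 0.18 to 0.93, limma adjusted p = 0.0189), a call lost without WT soft replicate 1 (0.41, limma adjusted p = 0.135) and without Cav1KO soft replicate 1 (0.46, limma adjusted p = 0.119). On stiff the genotype difference was -0.06 (-0.44 to 0.31, limma adjusted p = 0.765).

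For stiffness, the Tead1 log2 difference was 0.39 in WT cells (95% interval 0.02 to 0.77, limma adjusted p = 0.0784) and -0.23 in Cav1KO cells (-0.60 to 0.14, limma adjusted p = 0.261). Neither passed, and their difference did not either (0.62, 0.09 to 1.15, limma adjusted p = 0.101). The Cav1KO effect and the difference each depended on 1 library. Without Cav1KO stiff replicate 1 the WT effect passed (limma adjusted p = 0.0297), the Cav1KO effect became -0.45 (limma adjusted p = 0.0356) and their difference 0.84 (limma adjusted p = 0.02). Without Cav1KO stiff replicate 2 the WT effect also passed (limma adjusted p = 0.0300), as it did with median centring (0.0413) and DESeq2 (0.0401).

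**Figure D2:**
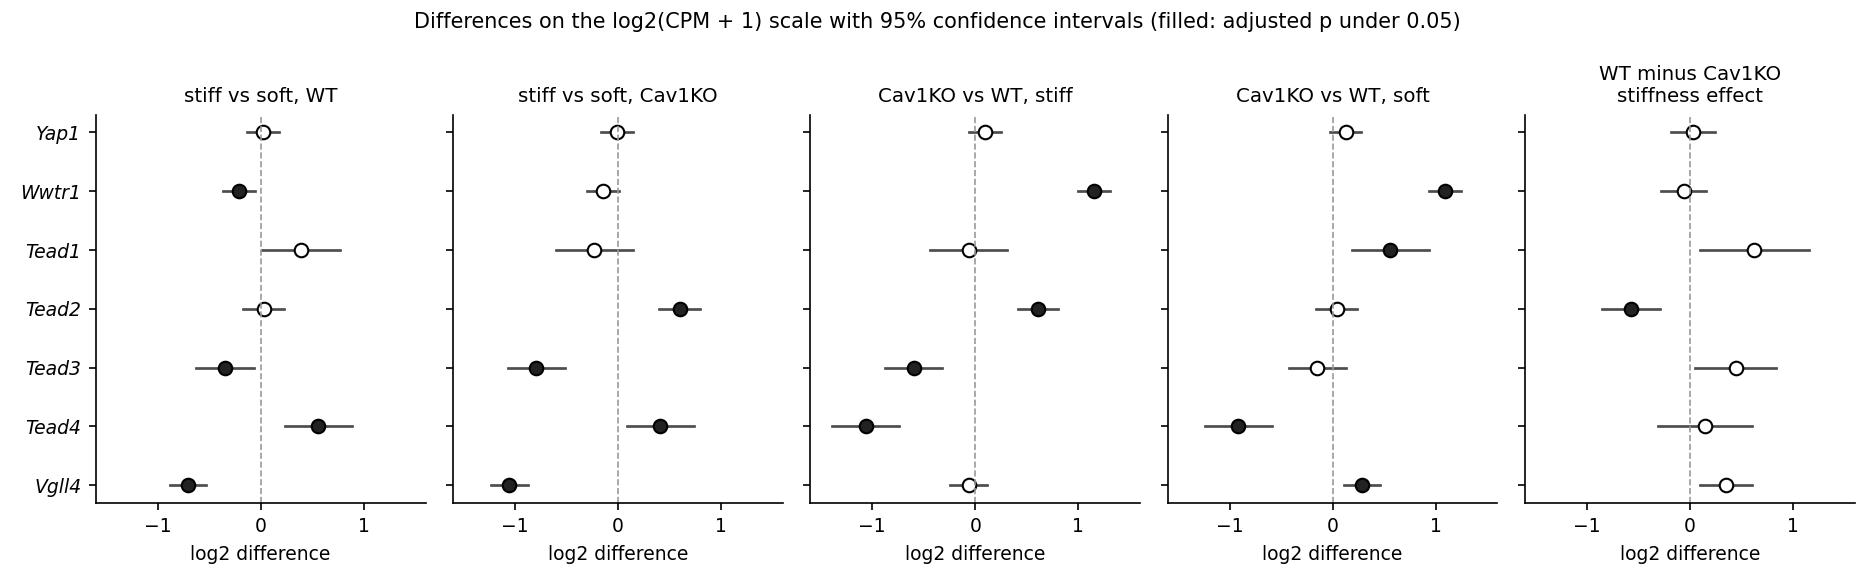
Log2 differences on the log2(CPM + 1) scale for each of the 7 genes in the stiffness and genotype comparisons and for the difference between the stiffness effects (right panel), with 95% confidence intervals from limma and filled points where the adjusted p was under 0.05. Wwtr1 and Tead4 lie on opposite sides of 0 in both genotype comparisons, Vgll4 lies furthest below 0 in both stiffness comparisons, and the Yap1 intervals include 0 throughout.

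Vgll4 (ENSMUSG00000030315, chromosome 6, 114860628 to 114969994, minus strand) showed the largest stiffness effect among the members in both genotypes. It was at 67.0 and 68.6 CPM in WT stiff, 117 and 105 in WT soft, 65.3 and 64.3 in Cav1KO stiff, and 139 and 132 in Cav1KO soft. All soft libraries lay above all stiff libraries, whatever the genotype. The soft mean was 1.64 times the stiff mean in WT cells (log2 difference -0.71 with SE 0.08, limma adjusted p = 0.000205) and 2.09 times in Cav1KO cells (-1.05 with SE 0.08, limma adjusted p = 2.29e-05). Both calls held under all settings and left-out libraries, and 81.0% of all genes tested changed less in WT cells and 89.6% in Cav1KO cells.

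Between genotypes, Vgll4 differed by -0.06 on stiff (95% interval -0.24 to 0.11, limma adjusted p = 0.515) and by 0.28 on soft (0.11 to 0.46, limma adjusted p = 0.0136), where both Cav1KO libraries lay above both WT libraries. The soft call was lost at limma adjusted p = 0.0843 without WT soft replicate 2 and 0.109 without Cav1KO soft replicate 1. The difference between its stiffness effects was 0.35 (0.10 to 0.60, limma adjusted p = 0.0698), and quantile normalization alone brought it past the threshold (0.42, adjusted p = 0.0388).

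Levels per kilobase let the TEAD genes be set against each other. Divided by the total exonic length of each gene in GENCODE M21, Tead2 was the highest TEAD gene in every library and held 71.1% to 87.6% of the TEAD sum. Tead4 held 10.5% to 11.7% of the sum in WT stiff, 7.43% to 8.26% in WT soft, 3.73% to 3.94% in Cav1KO stiff and 3.42% to 4.21% in Cav1KO soft. Its share differed by -5.65 percentage points, from 9.48% in the WT to 3.83% in the Cav1KO libraries (exact permutation test, two-sided, p = 0.0286, adjusted p = 0.0857). The share of Tead3 was 3.84% on stiff and 6.64% on soft, a difference of -2.80 points with the same exact permutation p and adjusted p. The shares depend on the length used. With the median transcript, Tead2 held 78.1% to 89.8% and Tead4 2.80% to 3.16% in WT stiff and 0.937% to 0.985% in Cav1KO stiff, and the genotype difference for Tead4 was -1.57 points.

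**Figure D3:**
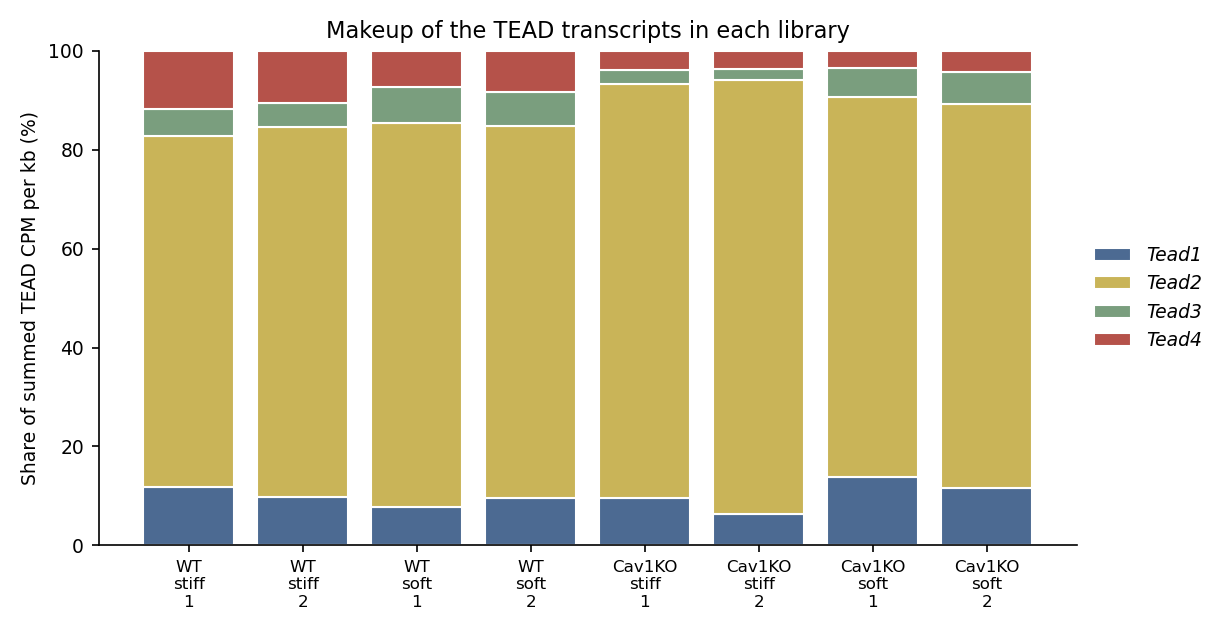
Share of each TEAD gene in the TEAD sum of CPM per kilobase of exon, in percent, for each of the 8 libraries. Tead2 makes up most of every bar and reaches its largest shares in the Cav1KO stiff libraries, while the Tead4 share is smaller in all Cav1KO libraries.

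The Vgll4 CPM of each library was also divided by its TEAD sum per kilobase, which follows their balance across libraries. Because the Vgll4 value was not divided by its length here, the ratio is no comparison of levels. This ratio was 1.42 and 1.41 in WT stiff, 2.62 and 2.33 in WT soft, 1.09 and 0.980 in Cav1KO stiff, and 3.13 and 2.81 in Cav1KO soft. Every soft library lay above every stiff one. The log2 ratio was 1.16 lower on stiff than on soft over 4 against 4 libraries (exact permutation test, two-sided, p = 0.0286, adjusted p = 0.0857). Between genotypes it differed by -0.09 over both substrates (exact permutation test, p = 0.8), a mean of opposite differences. On stiff the log2 ratio was 0.50 ± 0.01 in WT and 0.05 ± 0.11 in Cav1KO cells, and on soft 1.31 ± 0.12 in WT and 1.57 ± 0.11 in Cav1KO cells (SD, n = 2), and the libraries of the genotypes overlapped on neither substrate. With 2 libraries against 2, these differences were not tested.

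**Figure D4:**
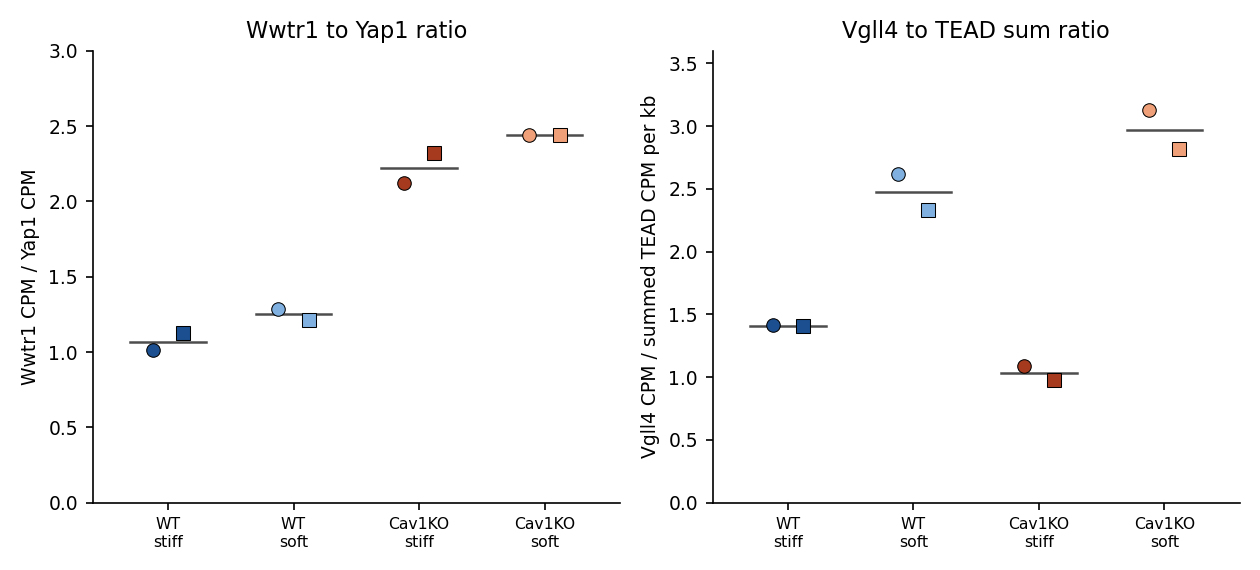
Ratio of Wwtr1 to Yap1 CPM (left) and ratio of Vgll4 CPM to the TEAD sum of CPM per kilobase (right) in each library, both without units. Circles are replicate 1, squares replicate 2 and lines the group mean. The first ratio separates the genotypes and the second separates the substrates.

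The order of the members by CPM per kilobase changed between groups. In WT stiff it ran Tead2 (35.1), Wwtr1 (32.5), Yap1 (15.7), Vgll4 (12.6), Tead4 (5.34), Tead1 (5.15) and Tead3 (2.47), and the libraries of Tead4 and Tead1 overlapped, as they did in WT soft. In Cav1KO soft it ran Wwtr1 (80.1), Tead2 (35.3), Vgll4 (25.1), Yap1 (16.9), Tead1 (5.79), Tead3 (2.85) and Tead4 (1.75). By this length Tead4 was in place 5 in WT stiff, and with the median or the longest transcript in place 6. It was last in Cav1KO soft with each length. The order depends on the length used. With the longest transcript of each gene Vgll4 came first in WT soft (50.6 CPM per kilobase), though its libraries overlapped those of Tead2 (48.5). With the median transcript Tead2 came first in all 4 groups. In each of them Yap1 then lay above Wwtr1, at 101 against 33.7 CPM per kilobase in WT stiff and 109 against 82.9 in Cav1KO soft. Tead1 then lay above Tead4, at 57.4 against 11.2 in WT stiff.

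The surrounding pathway was described by 4 lists. In the direct test of the difference between stiffness effects, 10.5% of all genes were called. The test called 2 of 17 Hippo kinases and adaptors (11.8%) and 3 of 16 cytoplasmic binding partners and degradation factors (18.8%). It called 4 of 16 nuclear partners (25.0%) and 5 of 22 target readouts (22.7%). The separate counts for WT and Cav1KO cells below are no test of a difference between them. Of 17 Hippo kinases and adaptors, 3 were higher and 1 lower on stiff than on soft in WT cells, and 3 were higher and 5 lower in Cav1KO cells, with median log2 differences of 0.21 and -0.33 against -0.02 for all genes in both. These were 23.5% and 47.1% of the list, against 48.4% and 56.1% of all genes. In Cav1KO compared with WT cells, 3 were higher and 3 lower on stiff (35.3% of the list, 51.7% of all genes) and 7 were higher and 1 lower on soft (47.1%, against 54.0%). Nf2, which encodes the upstream adaptor merlin, was at 67.3 CPM on stiff and 40.6 on soft in WT cells (log2 difference 0.71, limma adjusted p = 0.00143). Stk3, which encodes the kinase MST2, was at 23.2 CPM on stiff and 40.8 on soft in Cav1KO cells (-0.78, limma adjusted p = 0.000613). Mob1a, which encodes a co-activator of the LATS kinases, was lower in Cav1KO than in WT cells on both substrates. The log2 difference was -0.51 on stiff (limma adjusted p = 0.000365) and -0.80 on soft (limma adjusted p = 2.47e-05).

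Of 16 cytoplasmic binding partners and degradation factors, 2 were higher and 3 lower on stiff in WT cells (31.2% of the list, 48.4% of all genes) and 3 were higher and 6 lower in Cav1KO cells (56.2%, against 56.1%). The median log2 differences were 0.04 and -0.06, against -0.02 for all genes in both. Between genotypes, 2 were higher and 9 lower in Cav1KO cells on stiff (68.8%, against 51.7%, median -0.39) and 2 were higher and 7 lower on soft (56.2%, against 54.0%, median 0.02), where the median of all genes was -0.03 on both substrates. Ajuba, which encodes a LIM protein that binds LATS kinases, fell from 138 CPM in WT to 54.5 in Cav1KO cells on stiff (-1.32, limma adjusted p = 3.51e-06) and from 116 to 43.6 on soft (-1.40, limma adjusted p = 2.38e-06). Amotl1, which encodes an angiomotin that can hold YAP in the cytoplasm, was at 57.2 and 57.3 CPM in the Cav1KO soft libraries and at 13.6 to 25.3 CPM in the other 6 libraries.

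Of 18 nuclear partners, 16 were tested, and Vgll1 and Vgll2 were not listed. On stiff compared with soft, 4 were higher and 4 lower in WT cells (50.0% of those tested, 48.4% of all genes) and 3 were higher and 9 lower in Cav1KO cells (75.0%, against 56.1%), with median log2 differences of 0.08 and -0.53. In Cav1KO compared with WT cells, 3 were higher and 7 lower on stiff (62.5%, against 51.7%, median -0.30) and 7 were higher and 3 lower on soft (62.5%, against 54.0%, median 0.37). Runx3, which encodes a transcription factor that can bind TEADs, was at 39.6 and 46.1 CPM in WT stiff and 9.26 and 12.1 in Cav1KO stiff (-1.91, limma adjusted p = 1.59e-05). On soft it was lower in Cav1KO cells too (-1.86, limma adjusted p = 1.84e-05). Fosl1, an AP-1 subunit, was higher on stiff in WT cells (0.65, limma adjusted p = 0.00163), and Fos, another AP-1 subunit, was lower there (-1.11, limma adjusted p = 0.000483). The order was the same in Cav1KO cells. There Fosl1 was at 76.7 CPM on stiff and 51.4 on soft, and Fos was lower on stiff (-1.32, limma adjusted p = 0.00014).

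Of 22 target readouts of YAP, TAZ and TEAD, 8 were higher and 6 lower on stiff in WT cells (63.6% of the list, 48.4% of all genes) and 1 was higher and 8 lower in Cav1KO cells (40.9%, against 56.1%), with median log2 differences of 0.17 and -0.17. In Cav1KO compared with WT cells, 1 was higher and 14 lower on stiff (68.2%, against 51.7%) and 5 were higher and 11 lower on soft (72.7%, against 54.0%), with median log2 differences of -0.63 and -0.22 against -0.03 for all genes in both. Ankrd1, a widely used YAP readout, was at 13.4 CPM in WT soft and 3.32 in Cav1KO soft (-1.73, limma adjusted p = 1.21e-05). For Ankrd1, stiff exceeded soft with caveolin-1 (means 26.9 against 13.4 CPM) and also without it (8.70 against 3.32 CPM). Igfbp3 was the readout that changed most with genotype (Cav1KO minus WT, -8.35 on stiff and -9.11 on soft). Its mean fell from 409 CPM with caveolin-1 to 0.257 without it on stiff, and from 631 to 0.154 on soft. Igfbp3 was thus nearly undetected without caveolin-1. Its log2 differences are limited by the 1 added to each CPM and do not measure a fold change. Tgfb2, which encodes a TGF-beta ligand, was lower on stiff in both genotypes (-1.47 in WT with limma adjusted p = 0.0001, and -1.71 in Cav1KO with limma adjusted p = 2.98e-05).

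For the 6 members whose group means spanned at least 0.5 on the log2 scale, the genes with the most similar profile over the 8 libraries were found among 10063 genes by the root mean square difference of centred log2 values. The closest to Wwtr1 were Slc9a8 (0.0435) and Cstf2t (0.0569), where the median gene was at 0.670. Vgll4 was closest to Bloc1s1 (0.0507) and a gene without a symbol, ENSMUSG00000099597 (0.0551). Tead2 was closest to 2810408M09Rik (0.0467) and Limd2 (0.0470), Tead3 to Dbn1 (0.0732) and Plekho2 (0.0738), Tead4 to Polh (0.0733) and Btbd19 (0.0914), and Tead1 to Sf3b2 (0.0665) and Arhgap35 (0.0707). Yap1 spanned 0.13 and was not searched.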

How the data were processed

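The authors sequenced poly(A) RNA as 60 nt single reads and deposited TMM-normalized CPM, a scaled signal per gene and library. The submitters' processing notes name CASAVA 1.8.2, cutadapt, RSEM 1.2.3 and GRCm38. The aligner, the annotation, the filter on low genes and the strand setting are not given in the sources used here. All deposited values (100%, within 0.02 reads) were whole multiples of 1 step per library, so read counts were recovered and used for alternatives. On them edgeR called 5934 genes for stiffness in WT and 6894 in Cav1KO cells, 6417 and 6639 for genotype on stiff and soft, and 902 for the difference between the stiffness effects.

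The 7 genes and the pathway lists were chosen with earlier results of these data known. All 4 groups entered 1 limma 3.58.1 fit (R 4.3.3) on log2(CPM + 1) with a mean-variance trend, 4 residual degrees of freedom, two-sided tests and a threshold of 0.05. Genes named besides the members were the 2 called genes with the largest change in each list and comparison, of which some are printed, and the 2 most similar profiles. Ratios and shares were compared with exact permutation tests. Alternatives were pseudocounts of 0.5 and 5, no filter, no trend, median centring, quantile normalization, edgeR 4.0.16 and DESeq2 1.42.0 on recovered reads, a replicate block and each library left out. Of the fits, only the limma fit with the trend was tried on simulated data. Coordinates and lengths come from GENCODE M21 (GRCm38). Of the distinct 60-base windows in the annotated transcripts, 0.829% of those of Yap1 and 0.0864% of those of Tead1 also occur in another gene. Other genes overlap 1.25% of the Yap1 exons and 0.272% of those of Tead2, and the kit is not stated to mark strand.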

Additional observations from a re-analysis of the deposited data

Results flagged for a closer look

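The stiffness effect on Tead2 differed between the genotypes in a direct test (WT effect minus Cav1KO effect, -0.57 on the log2 scale with SE 0.12, limma adjusted p = 0.0310). Tead2 was 1.52 times as high on stiff as on soft in Cav1KO cells, and in WT cells the log2 difference was 0.03. The value ranged from -0.67 to -0.47 over the fits without 1 library, and the call was kept in 2 of these 8 fits.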

How the results depend on the processing

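No member's called difference changed sign under any alternative. The number of members called for the difference between stiffness effects was 1, and it was 0 without the mean-variance trend (limma, 4 at an unadjusted p under 0.05, with 1 call by edgeR and 1 by DESeq2) and 2 with quantile normalization. For all genes that comparison gave 1309 calls, 705 without the trend and 110 to 3436 without 1 library, and stiffness in WT cells gave 6046, and 3913 without WT soft replicate 1. The number of members called ranged, without 1 library, from 1 to 5 for stiffness in WT cells, 3 to 4 for stiffness in Cav1KO cells, 2 to 4 for genotype on soft and 0 to 2 for the difference, and it was 4 throughout for genotype on stiff. The log2 ratio of Yap1 to Wwtr1 ranged from -1.06 to -0.95 between genotypes and from -0.02 to 0.38 between substrates, and that of Vgll4 to the TEAD sum from -1.24 to -1.06 between substrates and from -0.37 to 0.19 between genotypes. The length of the longest transcript was an alternative chosen after seeing the data. It changed no direction among the TEAD shares and the ratio to the TEAD sum (-1.15 between substrates). None of these tests passed the threshold with either length, so there was no call to lose. The cause of the shifts between fits was not tested.

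Correlations of deviations between same-numbered libraries had mixed signs, so they did not settle whether replicate numbers pair the samples. They ran from -0.37 (WT stiff with WT soft) to 0.42 (WT stiff with Cav1KO stiff). With a replicate block, 3 members were called for stiffness in WT cells (Tead3 was lost, adjusted p = 0.0570), 4 in each of the other 3 comparisons and 1 for the difference, and no other member's call changed. With 2 libraries per group, the fit pools the spread over groups, and a lone library left in a group is assumed to vary like the others. The lowest counts were those of Tead4 and Tead3, where depth limits the precision most.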

Other observations

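Vgll3, a relative of Vgll4 that also binds TEAD factors, was looked at after its values were seen. It was at 45.0 and 44.3 CPM in WT stiff, 33.8 and 36.5 in WT soft, 39.2 and 32.1 in Cav1KO stiff, and 33.5 and 30.1 in Cav1KO soft. In WT cells it was higher on stiff (log2 difference 0.34, limma adjusted p = 0.0354), the opposite order to Vgll4, and in Cav1KO cells the difference was 0.15 (limma adjusted p = 0.274). On stiff it was lower in Cav1KO than in WT cells (-0.32, limma adjusted p = 0.0389).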
